A study of Mus musculus with 20 samples.

Results

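Scavenger receptors are surface and endosomal proteins with which macrophages bind and take up modified lipoproteins, bacteria, apoptotic cells and particles. They fall into classes by structure rather than by a shared ancestor. Marco and Msr1 are class A trimers with a collagen-like stalk, Cd36 and Scarb1 are class B lipid receptors, Olr1 is a class E lectin-like receptor, Stab1 is a class H receptor, Cd68 is a class D protein of endosomes and lysosomes, and Mrc1 is the mannose receptor. The set described here is these 8 genes, taken by symbol from the 24421 genes of the count tables. All 8 were found, and all 8 passed the filter on low counts that left 12132 genes for testing.

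The RNA came from bone marrow-derived macrophages of 5 mice, cultured in 20% serum with 30% medium from L929, a fibroblast cell line used as a source of CSF-1. The replicate number of a library was taken as its mouse. Cells of each mouse were exposed for 48 h to each of 4 formulations, which gave 20 libraries, 5 per condition. The labels call the particle without adjuvant LP, where LP was taken to mean the lipoparticle that the series is named for. LP PIC and LP 3M carry a single adjuvant each, and both are present in LP 3M PIC. All 4 groups therefore received the particle, and the baseline is particle-exposed cells rather than untreated cells. The sources used here do not say what PIC and 3M stand for, how much of each was used, or the strain, age and sex of the mice.

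The libraries held 9740528 to 23874805 gene counts, with the lowest totals in LP of mouse 2 and in LP 3M PIC of mouse 3 (12542569). A floor of 3 counts corresponds to 0.126 to 0.308 CPM (the usual counts-per-million scale, on the gene counts of a library), and covers counting error only. All 10 macrophage markers had counts in every condition and summed to between 9806 and 25461 CPM per library, led by Lyz2, Adgre1 and Csf1r. Neutrophil markers (10 of 11 with counts) summed to 9.86 to 20.8 CPM per LP library, 28.8 to 82.7 per LP PIC library, 94.6 to 730 per LP 3M library and 243 to 3912 per LP 3M PIC library. The highest of them was Mmp8 in LP and Lcn2 elsewhere, with S100a8 next in LP 3M PIC. Retnlg was at 0 in every library, Elane in LP and LP 3M, and Cxcr2 in LP and LP 3M PIC. Dendritic cell markers (8 of 9 with counts, Cd209a at 0 throughout) summed to 36.4 to 118, 16.6 to 25.0, 27.2 to 48.2 and 15.4 to 65.8 CPM in the same order, led by Itgax except in LP 3M PIC, where Ccr7 was higher, with Batf3 below both. Endothelial markers, of interest because sinusoidal endothelium also makes Stab1 and Mrc1, summed to 228 to 276, 162 to 199, 99.8 to 193 and 73.9 to 245 CPM in the same order, mostly Vwf and Kdr, while Stab2 lay between 0.0632 and 0.846 CPM on average. Fibroblast markers summed to 15.8 to 137 CPM per library with all 8 detected (Dcn, Col1a2 and Col1a1 highest). T cell (4 of 7 detected; Lck, Cd247, Cd4), B cell (3 of 5; Cd79b, Cd79a, Ms4a1) and mast cell (4 of 6; Kit, Gata2, Mcpt8) markers stayed at or below 6.18 CPM in sum, and all 6 erythroid markers, among them Hba-a1, Hba-a2 and Hbb-bs, were at 0. The part of these other cell types in the results below was not tested. In bulk RNA, fewer cells of a type and less RNA per cell cannot be told apart.

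The deposited tables name genes only by symbol, so positions are those of GENCODE M21 on GRCm38. Marco lies on chromosome 1 (120474538 to 120505024, minus strand), Mrc1 on 2 (14229392 to 14332057, plus), Cd36 on 5 (17781690 to 17888801, minus), Scarb1 on 5 (125277087 to 125341094, minus), Olr1 on 6 (129485244 to 129507165, minus), Msr1 on 8 (39581685 to 39642673, minus), Cd68 on 11 (69664213 to 69666153, minus) and Stab1 on 14 (31139013 to 31168641, minus). All 8 are protein-coding. Stab1 shares 112 exonic bases, 1.09% of its exon length, with Nt5dc2 on the opposite strand, and whether the counting used strand is not stated in these sources, so reads there cannot be told apart. The microRNA gene Mir511 lies inside Mrc1 without touching its exons.

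RefSeq promoter entries (GRCm38.p6) were found for 6 of the 8 genes: Marco, Cd36, Mrc1, Stab1, Olr1 and Cd68. The 250 bases before the start are shown for Marco and Olr1, the pair that was nearly silent in LP and rose most, and for Mrc1, which fell most. Capitals mark matches to GAGGAA, a core bound by the macrophage factor PU.1, written TTCCTC where it lies on the other strand, and to TGANTCA, an AP-1 motif.
Marco, chr1:120505025-120505274, minus strand: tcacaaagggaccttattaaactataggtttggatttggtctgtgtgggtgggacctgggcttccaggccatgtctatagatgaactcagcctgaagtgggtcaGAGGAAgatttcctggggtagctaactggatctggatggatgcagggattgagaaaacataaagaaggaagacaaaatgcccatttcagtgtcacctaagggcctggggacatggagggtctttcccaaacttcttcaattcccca
Olr1, chr6:129507166-129507415, minus strand: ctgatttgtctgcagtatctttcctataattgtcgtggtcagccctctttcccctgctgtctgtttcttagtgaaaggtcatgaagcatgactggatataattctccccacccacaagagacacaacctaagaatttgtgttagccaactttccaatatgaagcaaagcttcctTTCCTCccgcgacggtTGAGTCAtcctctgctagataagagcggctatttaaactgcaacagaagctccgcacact
Mrc1, chr2:14229164-14229413, plus strand: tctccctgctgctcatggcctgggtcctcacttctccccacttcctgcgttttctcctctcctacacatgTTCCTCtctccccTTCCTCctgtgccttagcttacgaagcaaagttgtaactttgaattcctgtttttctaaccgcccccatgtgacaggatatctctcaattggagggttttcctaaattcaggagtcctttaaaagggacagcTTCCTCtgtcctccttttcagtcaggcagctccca

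The GAGGAA core, searched on both strands, begins 146 bases before the start in Marco, 76 in Olr1, and 180, 167 and 35 in Mrc1. It was also found in the windows of Stab1 (30 bases before the start) and Cd68 (225), not in that of Cd36, and 23.3% of 32851 RefSeq promoter windows of this length hold it. The Cd36 window (chr5:17835897-17836146, minus strand) lies inside the gene span given above and so belongs to an internal start. No other start of Cd36 was searched. An AP-1 match begins 60 bases before the start in Olr1 and 149 and 24 bases before it in Cd68, against 6.75% of all windows. No pair of these matches overlaps. The other motifs searched on both strands are in none of the 6 windows. They were the STAT motif TTCNNNGAA, which 7.02% of all windows hold, the NRF2 motif TGACNNNGC (10.2%) and the TATA-box letters TATAAA (12.4%). The rest were NF-kB (0.356%), the interferon-stimulated response element (2.98%), STAT6 (5.85%) and the PPAR/RXR and LXR direct repeats (0.0335 and 0.0152%). Variant spellings were not searched, so a TATA box or a site spelled otherwise may be present. A match is a run of letters and not a measured binding site.

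Marco, the macrophage receptor with collagenous structure, which binds bacteria and inhaled particles, was switched from near absence to abundance in the 2 conditions with 3M. The 5 mice, in order of number, had LP levels of 0.589, 0.103, 2.05, 1.04 and 0.536 CPM, the lowest of which is a single count. LP PIC gave 2.92, 1.73, 2.32, 3.93 and 1.5 CPM, and overlapped LP. LP 3M gave 541, 369, 169, 423 and 81.8 CPM, so that the lowest LP 3M library lay far above the highest without 3M. LP 3M PIC gave 284, 402, 93.4, 233 and 71.2 CPM, within the range of LP 3M except for the lowest library. Marco rose by 8.49 ± 0.73 on the log2 scale with LP 3M against LP (log2 fold change and its SE from edgeR's quasi-likelihood test, n = 5 per group, adjusted p = 8.51e-08) and by 7.95 ± 0.72 with LP 3M PIC (adjusted p = 3.09e-08), in 5 of 5 mice each. For LP PIC the change was 1.44 ± 0.72 and not called at an adjusted p of 0.05 (adjusted p = 0.113), although the level was higher in 5 of 5 mice. DESeq2 called it (1.51, adjusted p = 0.0314), as did the fit to LP and LP PIC alone (1.48, adjusted p = 0.0291). Between LP 3M PIC and LP 3M the difference was −0.54 ± 0.50 (adjusted p = 0.401), lower in 4 of 5 mice. Against LP PIC, Marco was higher by 7.05 ± 0.67 in LP 3M and by 6.51 ± 0.65 in LP 3M PIC (adjusted p = 3.24e-07 and 8.84e-07).

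Msr1, the class A receptor for acetylated and oxidised low-density lipoprotein, was already well expressed in LP and rose with each formulation. The mice had 377, 341, 308, 319 and 410 CPM in LP and 716, 696, 502, 681 and 513 in LP PIC, 2 ranges that do not overlap. LP 3M gave 1186, 1273, 753, 870 and 617 CPM, and LP 3M PIC 1273, 1479, 671, 866 and 876. Both conditions with 3M lay above LP in every library but overlapped each other and LP PIC. The rise against LP was 0.87 ± 0.22 for LP PIC (adjusted p = 0.00289), 1.54 ± 0.22 for LP 3M (adjusted p = 2.56e-05) and 1.68 ± 0.22 for LP 3M PIC (adjusted p = 2.4e-06). LP 3M stood above LP PIC by 0.67 ± 0.22 (adjusted p = 0.0161). Without mouse 1 it is no longer called (0.62, adjusted p = 0.0561). LP 3M PIC stood above LP PIC by 0.81 ± 0.22 (adjusted p = 0.00529), and its difference from LP 3M was 0.14 ± 0.21 (adjusted p = 0.629).

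**Figure D1:**
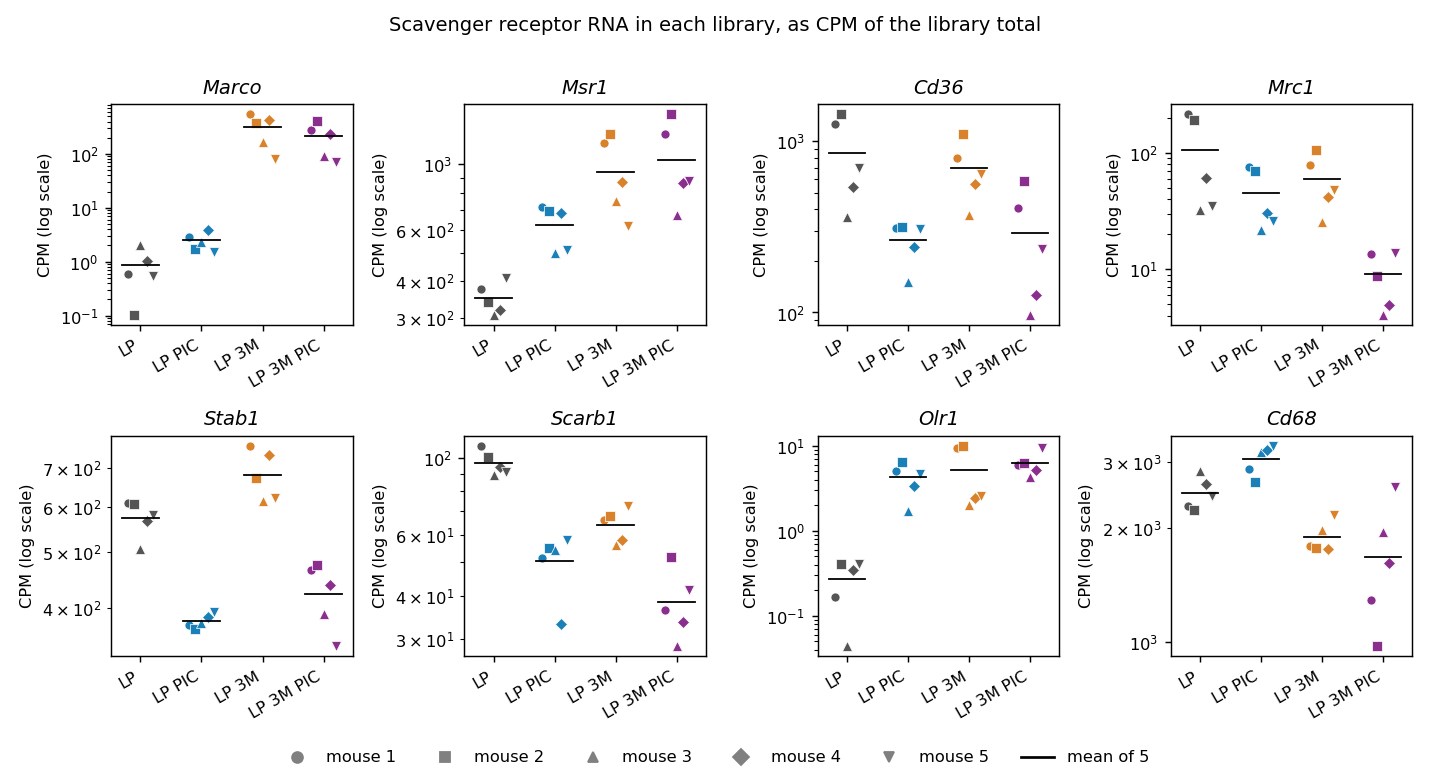
CPM of the library total (log axis) for the 8 receptor genes, 1 panel per gene, with 1 symbol per mouse and a line at the mean of 5 libraries in each of 4 conditions. Marco sits at 81.8 to 541 CPM in LP 3M against 0.103 to 2.05 in LP, and Mrc1 at 4.07 to 13.9 CPM in LP 3M PIC, below every other condition.

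Olr1, which encodes the oxidised low-density lipoprotein receptor LOX-1, was the other gene near the floor in LP, and each formulation raised it to a low level. The LP libraries held 26 counts in all, at 0.168, 0.411, 0.0436, 0.348 and 0.402 CPM. LP PIC gave 5.12, 6.39, 1.71, 3.40 and 4.67 CPM, LP 3M 9.34, 9.99, 2.00, 2.47 and 2.57, and LP 3M PIC 5.94, 6.37, 4.31, 5.18 and 9.52. None of these 3 groups overlapped LP, and all 3 overlapped one another. The rises were 4.05 ± 0.60 (adjusted p = 2.56e-05), 4.44 ± 0.60 (adjusted p = 1.47e-05) and 4.68 ± 0.60 (adjusted p = 1.9e-06), each in 5 of 5 mice. In LP 3M, mice 1 and 2 were at least 3 times above the other 3. The differences among the 3 formulations were 0.24 to 0.63 and none was called (adjusted p = 0.255 to 0.687).

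Cd36, a class B receptor for oxidised low-density lipoprotein and long-chain fatty acids and a target of the nuclear receptor PPAR-gamma, was lowered in the 2 conditions with PIC. In LP the mice had 1261, 1436, 362, 539 and 699 CPM, and in LP 3M 805, 1099, 369, 562 and 644. These 2 ranges overlap almost throughout. LP PIC gave 310, 314, 150, 242 and 309 CPM, all below the lowest LP library, and LP 3M PIC gave 409, 589, 96.8, 127 and 236, of which the 2 highest reached into the LP range. Against LP, Cd36 fell by 1.64 ± 0.46 with LP PIC (adjusted p = 0.00714) and by 1.42 ± 0.46 with LP 3M PIC (adjusted p = 0.0114), in 5 of 5 mice each. With LP 3M the change was −0.18 ± 0.45 (adjusted p = 0.778), with 3 mice lower and 2 higher, and turned to 0.07 without LP of mouse 2. LP 3M stood above LP PIC by 1.46 ± 0.46 (adjusted p = 0.0141). LP 3M PIC stood below LP 3M by 1.24 ± 0.46 (adjusted p = 0.0359). That call is sharper with mouse as a block (−1.43, adjusted p = 5.14e-05), but without the block it is lost without mouse 1 (−1.33, adjusted p = 0.0654), mouse 4 (−1.11, adjusted p = 0.12), mouse 5 (−1.20, adjusted p = 0.11) or LP 3M PIC of mouse 3 (−1.02, adjusted p = 0.0803). LP 3M PIC and LP PIC differed by 0.22 ± 0.45 (adjusted p = 0.718), a value that turns to −0.05 with mouse as a block and to −0.16 without mouse 2.

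Scarb1, the class B receptor for high-density lipoprotein, through which cholesterol esters are taken up and free cholesterol is exchanged, fell with each formulation. It ran from 89.3 to 108 CPM in LP (median 93.9), 33.1 to 58.1 in LP PIC (54.3), 56.0 to 72.5 in LP 3M (66.3) and 28.5 to 51.6 in LP 3M PIC (36.3). None of the 3 formulations overlapped LP. The changes against LP were −0.90 ± 0.14 (adjusted p = 4.61e-05) for LP PIC, −0.48 ± 0.14 (adjusted p = 0.0112) for LP 3M and −1.22 ± 0.14 (adjusted p = 6.19e-07) for LP 3M PIC, and the LP 3M call is lost without mouse 1 (−0.46, adjusted p = 0.0578). LP 3M PIC also lay below LP 3M by 0.74 ± 0.14 (adjusted p = 0.000478) without overlap. LP 3M lay above LP PIC by 0.42 ± 0.14 (adjusted p = 0.0208). Leaving out mouse 1 (0.41, adjusted p = 0.0767) or mouse 4 (0.32, adjusted p = 0.0797) ends that call. LP 3M PIC stood at −0.32 ± 0.14 relative to LP PIC, which missed the threshold (adjusted p = 0.0774). It passed when mouse entered as a block (−0.32, adjusted p = 0.0331), without mouse 2 (−0.44, adjusted p = 0.0285) or without mouse 4 (−0.39, adjusted p = 0.0376). Scarb1 thus fell with LP 3M in 5 of 5 mice where the other class B gene, Cd36, was not called, and that contrast between the genes was not itself tested.

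Mrc1, the mannose receptor CD206 and a marker of alternatively activated macrophages, fell most where both adjuvants were present. Its LP values were 213, 190, 32.3, 60.6 and 34.7 CPM, so that mice 1 and 2 stood more than 3 times above the rest. LP PIC gave 75.2, 70.4, 21.9, 30.7 and 26.0 CPM and LP 3M 78.7, 105, 25.6, 41.6 and 47.9, both overlapping LP. LP 3M PIC gave 13.6, 8.76, 4.07, 4.97 and 13.9 CPM, below the lowest library of any other condition. Against LP, Mrc1 fell by 3.40 ± 0.61 with LP 3M PIC (adjusted p = 8.55e-05), and it lay below LP PIC (−2.21 ± 0.59, adjusted p = 0.00518) and LP 3M (−2.70 ± 0.59, adjusted p = 0.00143). LP PIC alone gave −1.19 ± 0.55, lower in 5 of 5 mice, which was not called (adjusted p = 0.086) unless mouse was taken as a block (−1.01 ± 0.29, adjusted p = 0.00921). LP 3M alone gave −0.70 ± 0.54, lower in 4 of 5 mice (adjusted p = 0.325), and its difference from LP PIC was 0.49 ± 0.54 (adjusted p = 0.482).

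Stab1, the class H receptor stabilin-1, which clears acetylated low-density lipoprotein and the matrix protein SPARC, moved in opposite directions with the single formulations. It ran from 507 to 609 CPM in LP (median 579), 367 to 392 in LP PIC (376), 613 to 766 in LP 3M (672) and 342 to 474 in LP 3M PIC (438). Only LP PIC and LP 3M PIC overlapped. LP PIC lowered it by 0.55 ± 0.09 (adjusted p = 9.59e-05) and LP 3M raised it by 0.36 ± 0.09 (adjusted p = 0.0047), and LP 3M stood above LP PIC by 0.92 ± 0.09 (adjusted p = 5.73e-07). LP 3M PIC lay 0.33 ± 0.09 below LP (adjusted p = 0.00537) and 0.69 ± 0.09 below LP 3M (adjusted p = 1.76e-05). Its position 0.23 ± 0.09 above LP PIC was not called (adjusted p = 0.0568). It was called with mouse as a block (0.22, adjusted p = 0.0401), by DESeq2 (0.23, adjusted p = 0.043), without mouse 5 (0.32, adjusted p = 0.00848) and without LP 3M PIC of mouse 3 (0.25, adjusted p = 0.0482).

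Cd68, or macrosialin, a heavily glycosylated relative of the lysosomal LAMP proteins used as a general macrophage marker, had the highest level of the 8 per kb of exon and changed little in fold. It ran from 2232 to 2831 CPM in LP (median 2435), 2645 to 3300 in LP PIC (3178), 1760 to 2166 in LP 3M (1794) and 971 to 2566 in LP 3M PIC (1615). LP 3M lay wholly below LP and LP PIC, while LP 3M PIC was the most spread of the 4 conditions and its highest library, of mouse 5, reached the LP range. LP 3M PIC was lower than LP by 0.46 ± 0.17 (adjusted p = 0.0256, in 4 of 5 mice), and this call is lost without mouse 1 (−0.42, adjusted p = 0.0971), 2 (−0.37, adjusted p = 0.0549), 3 (−0.46, adjusted p = 0.0635) or 4 (−0.44, adjusted p = 0.0981). Against LP PIC, Cd68 was lower by 0.62 ± 0.17 in LP 3M (adjusted p = 0.00651) and by 0.80 ± 0.17 in LP 3M PIC (adjusted p = 0.00112), in 5 of 5 mice each. Its change with LP PIC against LP was 0.34 ± 0.17, higher in 5 of 5 mice (adjusted p = 0.12, or 0.0426 in the block fit). With LP 3M it was −0.28 ± 0.17, lower in 5 of 5 mice (adjusted p = 0.2). Both were called when only the libraries of the 2 conditions compared were fitted (adjusted p = 0.0208 and 0.0396). LP 3M PIC and LP 3M differed by −0.18 ± 0.17 (adjusted p = 0.428).

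**Figure D2:**
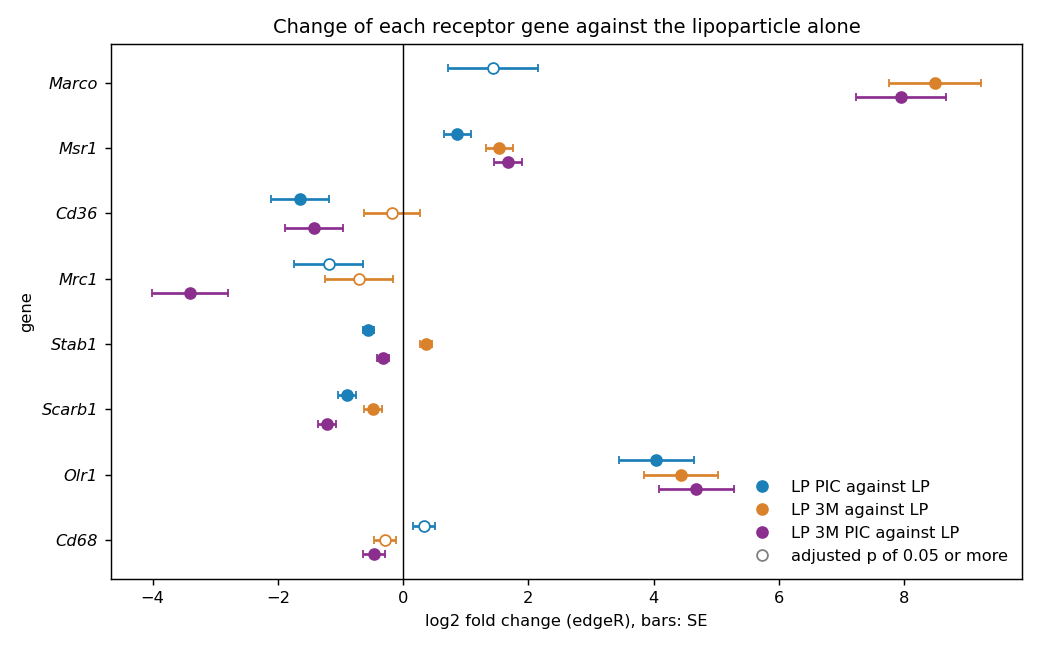
Log2 fold change against LP (edgeR, bars are SE, n = 5 per condition) for each receptor gene under the 2 single formulations and the dual one, with open symbols where the adjusted p was 0.05 or more. Marco stands at 8.49 and 7.95 in the conditions with 3M, Olr1 between 4.05 and 4.68 in all 3, and Mrc1 at −3.40 with LP 3M PIC.

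Counted over the 8 genes, LP PIC raised 2 (Msr1 and Olr1) and lowered 3 (Cd36, Scarb1 and Stab1), where 45.5% of all 12132 tested genes were called, 22.7% higher and 22.7% lower. LP 3M raised 4 (Marco, Msr1, Olr1 and Stab1) and lowered 1 (Scarb1), where 39.5% of all genes were called, 20.0% higher and 19.5% lower. LP 3M PIC raised 3 (Marco, Msr1 and Olr1) and lowered 5 (Cd36, Mrc1, Scarb1, Stab1 and Cd68), where 62.2% of all genes were called, 31.7% higher and 30.6% lower. The median log2 change over the 8 was −0.11, 0.09 and −0.39 for the 3 formulations, beside −0.00, −0.01 and 0.02 over all tested genes. These 3 comparisons share the LP libraries. Against LP PIC, LP 3M PIC raised 2 genes (23.1% of all) and lowered 2 (21.4% of all, 44.5% called in total). Against LP 3M it raised none (20.5% of all) and lowered 4, Cd36, Mrc1, Stab1 and Scarb1 (21% of all, 41.5% in total). Between the single formulations, 5 genes were higher with LP 3M (24.4% of all) and 1 lower (22.7% of all, 47.1% in total). Overlap, here and above, was judged in CPM of the library total, without the scaling factors used in the tests. On plain library totals the median log2 change of all genes against LP was −0.04 for LP PIC, −0.12 for LP 3M and −0.10 for LP 3M PIC. Libraries of the 2 conditions did not overlap for 2 genes higher (14.7% of all) and 3 lower (19.2%) with LP PIC against LP, for 4 higher (10%) and 2 lower (19.4%) with LP 3M, and for 3 higher (17.7%) and 3 lower (27.9%) with LP 3M PIC. For LP 3M PIC against LP PIC these counts were 1 (10.2%) and 2 (14.2%), against LP 3M 0 (12.2%) and 3 (12.8%), and for LP 3M against LP PIC 3 (14.0%) and 1 (18.1%). All these counts come from the fit that leaves out the pairing of libraries by mouse. With mouse as a block, 7 of the 8 genes and 6203 of all genes were called with LP PIC. For LP 3M PIC against LP PIC, 6 of the 8 and 6046 of all genes were called. The other pairwise counts of called receptor genes did not change. With 8 genes, a share differs from the next by 1 gene, and nothing particular to the set is read from these counts.

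Whether the dual formulation did what the single ones add up to was tested as an interaction: the log2 effect of PIC in the presence of 3M minus its effect in the absence of 3M. The sum of single changes assumes equal amounts of each adjuvant, which could not be checked here. Of the 8 genes 1 was called, lower, where 8.43% of all genes were called, 3.82% higher and 4.62% lower. This was Olr1, whose single changes summed to 8.49 while the dual change was 4.68 (interaction −3.80 ± 0.75, adjusted p = 0.00538, below 0 in 5 of 5 mice). The Olr1 call is lost without mouse 1 (−3.24, adjusted p = 0.0712), and rests on LP libraries of 1 to 9 counts. Marco (sum 9.93, dual 7.95) and Msr1 (sum 2.41, dual 1.68) also lay below their sums, by −1.98 ± 0.88 in 5 of 5 mice (adjusted p = 0.174) and −0.73 ± 0.30 in 4 of 5 (adjusted p = 0.148). Mrc1 had a dual change further from 0 than the sum of the single ones (sum −1.89, dual −3.40, interaction −1.51 ± 0.79, 5 of 5 mice, adjusted p = 0.254). With mouse as a block 3 of the 8 genes were called, where calls over all 12132 genes also rose, from 1023 to 1656. The 3 were Olr1 (−3.54, adjusted p = 0.00104), Mrc1 (−1.62, adjusted p = 0.0228) and Msr1 (−0.71, adjusted p = 0.0421). Cd68 gave −0.51 ± 0.24 (adjusted p = 0.206, 5 of 5 mice), and Cd36 (0.40 ± 0.64), Scarb1 (0.16 ± 0.20) and Stab1 (−0.14 ± 0.13) lay closer to their sums relative to their SE, with adjusted p from 0.576 to 0.752. The Cd36 value is −0.01 without mouse 2.

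**Figure D3:**
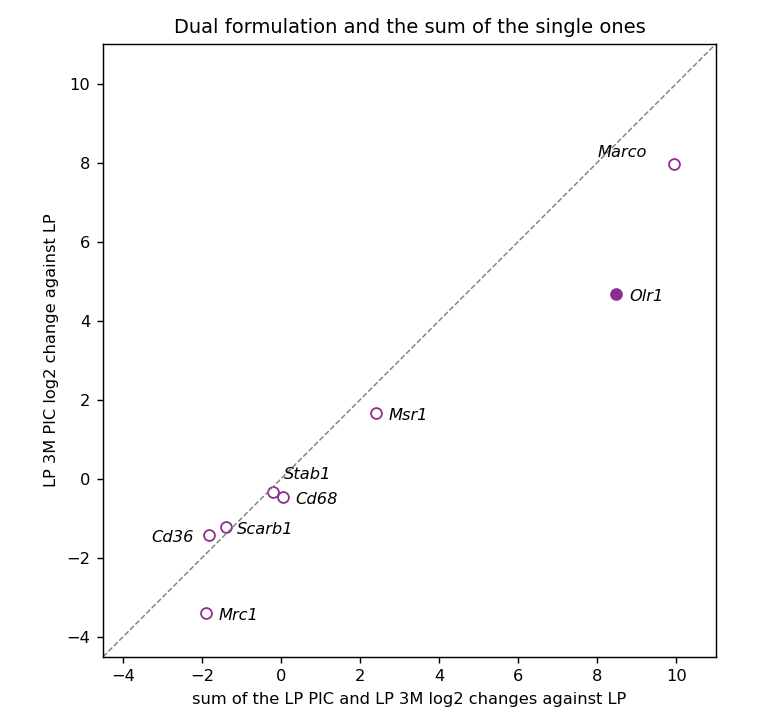
Log2 change of LP 3M PIC against LP (vertical axis) against the sum of the LP PIC and LP 3M changes (horizontal axis) for each receptor gene; the dashed line marks equality and the filled symbol an interaction with an adjusted p under 0.05. Olr1 lies at a sum of 8.49 and a dual change of 4.68, and Mrc1 at −1.89 and −3.40.

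Levels of different genes were compared as CPM per kb of merged exon length (1.26 kb for Cd68 to 10.3 kb for Stab1). That length joins the exons of all annotated transcripts, 2 for Marco, 5 for Msr1 and 11 for Scarb1. Which transcripts were expressed was not tested, so the order and ratios of different genes depend on this choice. In LP the order was Cd68 (1973 ± 194 CPM per kb, SD, n = 5), Cd36 (239 ± 130), Stab1 (55.8 ± 4.03), Msr1 (55.3 ± 6.69), Mrc1 (16.7 ± 13.9), Scarb1 (11.4 ± 0.913), Marco (0.449 ± 0.385) and Olr1 (0.0769 ± 0.0453). Stab1 and Msr1, Mrc1 and Scarb1, and Marco and Olr1 overlapped as neighbours, and the other steps did not overlap. In LP PIC, Msr1 (98.0 ± 16.6) came before Cd36 (73.9 ± 19.8) with overlapping ranges, and Stab1 followed at 36.8 ± 0.993. In LP 3M, Cd36 (194 ± 76.5), Marco (164 ± 97.6) and Msr1 (148 ± 44.3) overlapped behind Cd68 (1506 ± 140). In LP 3M PIC the order behind Cd68 (1335 ± 491) was Msr1 (163 ± 52.3), Marco (113 ± 71.3) and Cd36 (81.2 ± 57.5), with overlapping ranges, although Msr1 was above Marco in 5 of 5 mice. There Mrc1 (1.42 ± 0.728) was last, with a range that overlapped that of Olr1 (1.75 ± 0.556).

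Within single libraries the class A pair changed its balance. Per kb, Msr1 exceeded Marco by a median of 194 times in LP (45.6 to 1008) and 74.4 times in LP PIC (52.6 to 122). The median ratio of Msr1 to Marco was 1.05 in LP 3M (0.624 to 2.29) and 1.36 in LP 3M PIC (1.12 to 3.74). These 2 ratios rest on the merged exon lengths of 6.34 kb for Msr1 and 1.93 kb for Marco. In CPM without that division, the LP 3M means were 940 for Msr1 and 317 for Marco. The ratio of Msr1 to Mrc1 had a median of 5.29 in LP (1.77 to 11.9), 19.8 in LP PIC (9.57 to 23.0), 15.1 in LP 3M (12.2 to 29.6) and 166 in LP 3M PIC (63.2 to 175), and LP 3M PIC overlapped no other condition. Cd36 exceeded Scarb1 in all 20 libraries, by 6.55 to 38.4 times. The 8 genes together summed to 4468 ± 382 CPM for LP, 4409 ± 198 for LP PIC, 4658 ± 620 for LP 3M and 3695 ± 403 for LP 3M PIC (SD, n = 5).

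**Figure D4:**
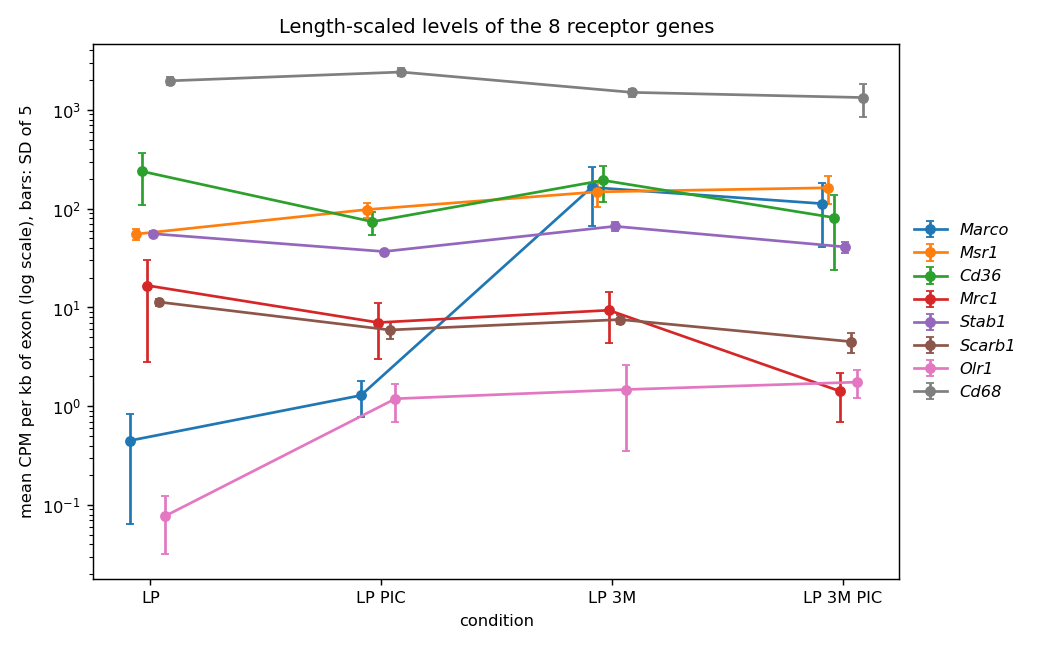
Mean CPM per kb of exon (log axis, bars are the SD of 5 libraries) of the 8 receptor genes in the 4 conditions, with lines joining the means of 1 gene. Marco moves from 0.449 in LP to 164 in LP 3M, next to Cd36 and Msr1, and Mrc1 from 16.7 in LP to 1.42 in LP 3M PIC.

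Cd36 had the same order of mice in all 4 conditions, from high to low 2, 1, 5, 4 and 3. In LP PIC, however, mice 2, 1 and 5 were nearly level, at 314, 310 and 309 CPM. The ratio of the highest to the lowest mouse was 3.97 for LP, 2.09 for LP PIC, 2.98 for LP 3M and 6.08 for LP 3M PIC. For Mrc1, mice 1 and 2 were the 2 highest in LP, LP PIC and LP 3M, and mouse 3 was the lowest in all 4. In LP 3M PIC mouse 5 was the highest for Mrc1, and its ratio to LP was 0.401, against 0.0460 for mouse 2. Stab1 differed by no more than 1.39 times between mice in any condition, and by 1.07 times in LP PIC. Marco in LP 3M was lowest in mouse 5 and highest in mouse 1, a ratio of 6.61. After this order had been seen, the 4 mouse terms of the block fit were tested: 15.2% of all 12132 genes were called and 5 of the 8 receptor genes, which were Cd36 (adjusted p = 0.000597), Mrc1 (adjusted p = 0.0035), Marco (adjusted p = 0.0357), Olr1 (adjusted p = 0.0464) and Msr1 (adjusted p = 0.0474). Cd68, Scarb1 and Stab1 missed the threshold, which does not show that mice did not differ in them (adjusted p = 0.0757, 0.172 and 0.29). Mouse cannot be told apart from the culture made from that mouse.

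**Figure D5:**
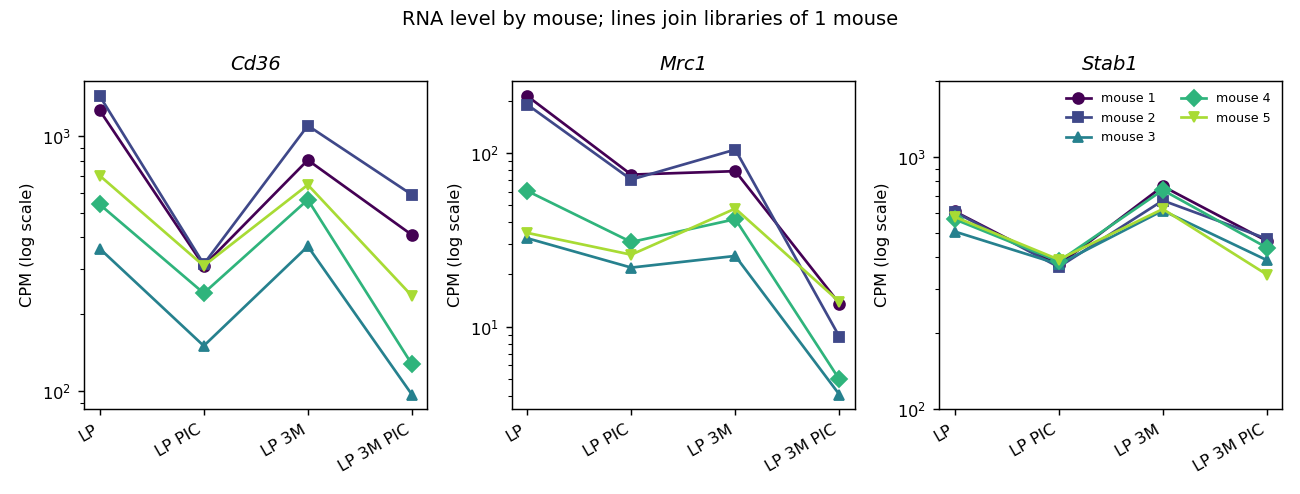
CPM (log axis) of Cd36, Mrc1 and Stab1 in the 4 conditions, with 1 line per mouse. The Cd36 lines keep their order, although those of mice 1, 2 and 5 nearly meet in LP PIC. Mouse 3 is lowest for Cd36 at 96.8 to 369 CPM, whereas the Stab1 lines lie within 1.39 times of each other in each condition.

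The genes whose pattern over the 20 libraries was closest to each receptor were taken by the root-mean-square difference of log2 CPM, each gene centred on its own mean, among 9312 genes with at least 5 CPM on average. Nearest to Marco was Fpr1, a receptor for formylated bacterial peptides, at 0.77, then Zfp811 (1.17) and Lox (1.27), beside a spread of 3.88 for Marco itself. Msr1 was closest to Eva1b (0.24), the copper transporter gene Slc31a1 (0.26) and Susd6 (0.27), and Olr1 to Clmp (0.58), the growth factor receptor gene Met (0.69) and Acsl1, a fatty acid acyl-CoA synthetase (0.73). The nearest to Cd36 were Rasgrp4 (0.49), Zcchc24 (0.51) and Nme4 (0.53). Those nearest to Mrc1 were Colec12, a collagen-containing scavenger receptor (0.61), Tns1 (0.62) and Padi4 (0.63). Stab1 was closest to Oat (0.12), Cotl1 (0.12) and Mtr (0.13), Scarb1 to Dag1 (0.16), Cux1 (0.17) and B3glct (0.18), and Cd68 to Naglu, a lysosomal glucosaminidase (0.13), Rfc2 (0.13) and Tpra1 (0.13). Among the 8, the closest pair was Stab1 and Scarb1 (0.44) and the farthest Marco and Mrc1 (4.73). The distance is not scaled by the spread of a gene, which was only 0.37 for Stab1 and 0.52 for Scarb1. A small distance between them is therefore not a shared pattern: with LP 3M against LP they moved oppositely (0.36 and −0.48). These distances are descriptions and share the conditions, mice and libraries.

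Further genes around the 8 receptors were read from the same fit, in lists with no test of their own. Their counts are to be read beside the all-gene shares of 22.7% higher and 22.7% lower for LP PIC, 20.0% and 19.5% for LP 3M, and 31.7% and 30.6% for LP 3M PIC. Of 18 further scavenger receptors listed, 13 were tested; 2 rose and 5 fell with LP PIC, 2 rose and 4 fell with LP 3M, and 2 rose and 7 fell with LP 3M PIC. Their median log2 changes were −0.37, −0.62 and −0.74, beside −0.00, −0.01 and 0.02 over all genes. Cxcl16, a membrane-bound chemokine that also binds oxidised lipoprotein, rose by 1.78 ± 0.18, 1.25 ± 0.18 and 1.76 ± 0.18. Lrp1, a large endocytic receptor of the lipoprotein receptor family, fell in all 3 (−1.48 ± 0.17, −0.72 ± 0.17 and −2.14 ± 0.17). Ssc4d, a secreted protein with scavenger receptor cysteine-rich domains, fell in all 3 (−0.65, −0.80 and −1.27), and Ptprj, a receptor phosphatase listed with them, rose by 1.42 and 1.14 in the conditions with 3M (−0.06 with LP PIC, adjusted p = 0.755). Megf10, an engulfment receptor, was called lower with LP PIC and LP 3M PIC, at 0.684 CPM in LP and 0.0263 and 0.114 CPM there, both under the floor of 3 counts in an average library. Of the mannose receptor relatives, Ly75, the endocytic receptor DEC-205, rose by 4.97 ± 0.49, 4.00 ± 0.48 and 5.23 ± 0.50, opposite to Mrc1 in LP 3M PIC. Pla2r1 fell with LP 3M PIC (−1.77 ± 0.39) and with LP PIC (−0.91 ± 0.37, adjusted p = 0.0477, a call that ends without mouse 1, 2, 4 or 5, at −0.66, −0.94, −0.87 and −1.02, or without the filter). With LP 3M it stood at −0.75 ± 0.36 (adjusted p = 0.106), called with mouse as a block (−0.78, adjusted p = 0.0169), and Mrc2 lay at 0.434 to 0.563 CPM with no call. Of the LAMP relatives of Cd68, 2 of 4 were tested, and both fell with LP 3M PIC (Lamp1 −0.38 ± 0.09, Lamp2 −0.24 ± 0.10, adjusted p = 0.0417). Lamp2 also fell with LP 3M (−0.27 ± 0.10, adjusted p = 0.0347). Both Lamp2 calls end without mouse 2, 3 or 4 (−0.21 to −0.30) or without LP of mouse 2 (−0.23 and −0.26). The LP 3M call of Lamp2 also ends without mouse 1 (−0.23, adjusted p = 0.0838). Its LP 3M PIC call also ends without mouse 5 (−0.21, adjusted p = 0.0754) or LP 3M PIC of mouse 3 (−0.23, adjusted p = 0.0696).

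Of receptors and kinases that work with the scavenger receptors, 18 were tested: 10 rose and 3 fell with LP PIC (22.7% of all genes in each direction), 12 and 4 with LP 3M (20.0 and 19.5% of all), and 12 and 4 with LP 3M PIC (31.7 and 30.6% of all). Their medians were 0.47, 0.60 and 1.15. Tlr2 and Tlr6, which pair with Cd36 in sensing diacylated lipids, rose by 2.73 ± 0.22, 2.25 ± 0.21 and 2.75 ± 0.22, and by 0.55 ± 0.11, 0.75 ± 0.11 and 1.41 ± 0.11. Cd14, the lipopolysaccharide co-receptor, rose by 0.72, 1.64 and 2.19 and the tyrosine kinase genes Src by 2.50, 1.23 and 2.64 and Syk by 0.64, 1.23 and 1.35, whereas Fyn, a kinase downstream of Cd36, fell (−1.12, −0.83 and −1.54). Ligands, opsonins and sorting partners numbered 13 tested, with 2 rising and 2 falling, 3 and 1, and 3 and 3, where 45.5, 39.5 and 62.2% of all genes were called in either direction, and medians of −0.21, −0.02 and −0.22. Thbs1, which encodes the Cd36 ligand thrombospondin-1, rose by 2.31 ± 0.63 and 3.57 ± 0.66 in the conditions with 3M, the former lost without mouse 1 (1.62, adjusted p = 0.068). Gas6, a bridge to apoptotic cells, fell in all 3 (−1.20 ± 0.20, −1.60 ± 0.20 and −2.87 ± 0.21), and Mfge8, another bridging protein, with LP 3M PIC (−2.47 ± 0.31), while its LP 3M value of −0.41 was called only in the fit to the 2 conditions (adjusted p = 0.0407). Chid1, a cargo of stabilin-1, rose by 0.38 ± 0.07 with LP 3M and 0.22 ± 0.07 with LP 3M PIC, the latter 0.11 and not called with plain library totals (adjusted p = 0.157). Of the sorting genes, Gga1 was called higher at 0.14, 0.17 and 0.16. Plain library totals end all 3 calls (0.10, 0.06 and 0.05), and the LP PIC call also ends without the filter, in the fit to the 2 conditions, without LP of mouse 2 and without mouse 1, 2, 4 or 5 (adjusted p = 0.0628 to 0.137). The LP 3M call of Gga1 ends without the filter or mouse 1, 2 or 4 (adjusted p = 0.0598 to 0.0873), and the LP 3M PIC call without mouse 1 (adjusted p = 0.0527). Snx17 fell with LP PIC (−0.23), and its LP 3M PIC value of −0.13 (adjusted p = 0.0513) is called under 6 alternatives, among them mouse as a block (−0.14, adjusted p = 0.0419).

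Genes of lipid uptake, storage and efflux rose in 5 and fell in 3 of 19 cases with LP PIC, 3 and 8 with LP 3M, and 5 and 9 with LP 3M PIC, beside 45.5, 39.5 and 62.2% of all genes called in either direction. Their medians were 0.15, −0.35 and −0.27. Lpl, lipoprotein lipase, fell in all 3 (−2.95 ± 0.34, −1.27 ± 0.32 and −4.15 ± 0.36), from 3233 CPM in LP to 167 in LP 3M PIC. Acsl1 rose by 3.23 ± 0.22, 2.94 ± 0.22 and 3.78 ± 0.22. The cholesterol exporter genes moved apart, with Abca1 up by 1.60, 1.75 and 2.15 and Abcg1 down with LP 3M (−1.38) and LP 3M PIC (−0.73) and at 0.08 with LP PIC (adjusted p = 0.468). Nceh1, a cholesterol ester hydrolase, fell in all 3 (−0.40, −0.69 and −1.39), the first no longer called without mouse 3 (adjusted p = 0.0546), mouse 4 (adjusted p = 0.0693) or LP of mouse 2 (adjusted p = 0.0608). Plin2, a lipid droplet coat protein gene, fell in the conditions with 3M (−0.88 and −0.67). Its LP PIC value of −0.26 (adjusted p = 0.0852) is called with mouse as a block (−0.27, adjusted p = 0.0154), without mouse 5 (adjusted p = 0.0275) and without LP 3M of mouse 5 (adjusted p = 0.0452). Of 20 transcription regulators linked to these receptors, 5 rose and 3 fell, 6 and 7, and 7 and 6, beside the same 45.5, 39.5 and 62.2% of all genes, with medians of −0.03, −0.10 and −0.12. Pparg, a regulator of Cd36, fell in all 3 (−1.08 ± 0.14, −1.38 ± 0.15 and −2.16 ± 0.15). With LP 3M, Cd36 itself stood at −0.18 ± 0.45 and was not called (adjusted p = 0.778). A link between the 2 genes was not tested. Nr1h3, which encodes LXR-alpha, rose by 1.74 ± 0.26, 1.73 ± 0.26 and 2.78 ± 0.26. Cebpa, a myeloid factor, fell in the conditions with 3M (−1.49 ± 0.32 and −2.74 ± 0.34). With LP PIC it stood at −0.73 ± 0.32 (adjusted p = 0.0678), which is called with mouse as a block (−0.76, adjusted p = 0.00102), in the fit to the 2 conditions (adjusted p = 0.0342), by DESeq2 (adjusted p = 0.0377) and without mouse 5 (adjusted p = 0.00233). Mitf, a factor of lysosomal genes, rose by 0.53, 0.43 and 0.62, the second no longer called with plain library totals (0.32, adjusted p = 0.0509).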

How the data were processed

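The authors deposited 1 table of raw counts per library, whole numbers of reads per gene symbol that were not normalised. Per the submitters' processing notes the reads were processed with STAR 2.7.11b and HTSeq 0.13.5 on build GRCm38, with FastQC 0.11.1 and DESeq2 1.44.0 also named. Annotation and strand setting: not given in the sources used here. The 5 rows that name no gene stayed out of library totals: reads outside genes made up 5.94 to 8.58% and ambiguous reads 1.14 to 1.90%. Levels are CPM of the library total. Tests used edgeR 4.0.16 in R 4.3.3 on the counts as deposited: filterByExpr (minimum count 10, minimum total 15; 99.97% of counts kept), TMM factors of 0.945 to 1.07, a robust quasi-likelihood F-test, two-sided, with 1 mean for each of the 4 conditions fitted to the 20 libraries, and Benjamini-Hochberg adjustment over 12132 genes, with calls at an adjusted p under 0.05. SEs are those implied by the F-test. The main fit does not use the pairing of libraries by mouse, which enters only in the block alternative. Alternatives were DESeq2 1.42.0, other scalings, no filter, mouse as a block, fits to 2 conditions, and leaving out mice or single libraries. Tables and figures used Python 3.11.15 with matplotlib 3.10.9, numpy 2.4.6 and pandas 2.3.3. The edgeR script was tested on simulated counts of independent libraries, with known changes in LP PIC only. The simulation held no mouse effect, so it does not cover the pairing of libraries.

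The replicate numbers were read as mice, since the titles of libraries with the same number share an identifier. They pair the libraries: deviations from the condition means correlated at 0.137 to 0.541 over 30 same-mouse pairs (median 0.40). Over 120 different-mouse pairs these deviations correlated at −0.404 to 0.375 (median −0.15). No 2 libraries were duplicates (chi-squared per degree of freedom at least 7.73 over 190 pairs). Exon lengths come from GENCODE M21, in which 95.6% of the symbols had 1 gene. The 8 genes, the gene lists and the tests were chosen with earlier results of these data known. The rule for other named genes takes the 3 genes of each list with the smallest p in each comparison with LP, the 3 genes nearest each receptor, and the 3 highest markers of each cell type.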

Additional observations from a re-analysis of the deposited data

Results flagged for a closer look

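In LP PIC the lowest Scarb1 library, that of mouse 4 at 33.1 CPM, stood apart from the other 4, which lay between 51.3 and 58.1 CPM. Its gap to the next library was 0.73 of the whole range, above the limit of 0.71 for 5 samples. It was the 1 such case among the 32 sets of 5 libraries looked at (8 genes in 4 conditions), and chance alone gives about 1 in 20. Without mouse 4 the fall of Scarb1 with LP PIC was −0.79, and the call held.

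The change of Olr1 with PIC differed with and without 3M: the interaction was −3.80 on the log2 scale (edgeR, adjusted p = 0.00538). LP PIC stood above LP by 4.05, and LP 3M PIC above LP 3M by 0.24.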

How the results depend on the processing

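The 56 gene-by-comparison values of the 8 receptors were recomputed in 776 alternatives: 738 kept direction and side of the threshold, 17 lost the call, 16 gained it and 5 changed sign, and 38 of the 56 kept both under all of them. The cause was not tested for any change. Plain library totals moved the median of all genes from −0.01 to −0.12 with LP 3M and from 0.02 to −0.10 with LP 3M PIC, against LP. The depth limits Marco and Olr1 in LP, with 98 and 26 counts over 5 libraries.

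With mouse as a replicate block, the values of the 8 receptors that gained a call were Mrc1 (−1.01) and Cd68 (0.33) with LP PIC against LP, Stab1 (0.22) and Scarb1 (−0.32) for LP 3M PIC against LP PIC, and the interactions of Msr1 (−0.71) and Mrc1 (−1.62). Cd36 for LP 3M PIC against LP PIC turned to −0.052. The block raised the interaction calls from 1 to 3 of the 8 genes and from 1023 to 1656 of all genes, and changed no other call on the 8.

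Fitting only the conditions compared gave calls for Marco (1.48) and Cd68 (0.35) with LP PIC and Cd68 (−0.28) with LP 3M, and ended those of Cd68 with LP 3M PIC (−0.47) and Cd36 for LP 3M PIC against LP 3M (−1.24). The latter also ended without the filter (−1.24). DESeq2 called Marco with LP PIC (1.51) and Stab1 for LP 3M PIC against LP PIC (0.23). Plain totals gave a call for Scarb1 between LP 3M PIC and LP PIC (−0.39), ended it between LP 3M and LP PIC (0.35), and changed the sign of Lamp2 with LP PIC (−0.028) and Snx17 with LP 3M (−0.089).

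For the genes of the other lists, 40 values lost and 15 gained a call under an alternative, most of them given beside the gene in the report: Gga1, Lamp2, Nceh1, Pla2r1, Cebpa, Plin2, Mitf, Chid1, Mfge8, Snx17 and Thbs1, and 8 changed sign. Leaving out a mouse or a library gave these ranges where a call of the 8 receptors, or the sign of any named gene, changed. With LP PIC against LP they were −0.0034 to 0.11 for Chid1 and −0.063 to 0.10 for Lamp2. With LP 3M they were −0.25 to 0.074 for Cd36, −0.54 to −0.46 for Scarb1, −0.35 to 0.25 for Mrc2 and −0.012 to 0.042 for Snx17. With LP 3M PIC they were −0.66 to −0.37 for Cd68 and −0.39 to 0.61 for Mrc2. Between LP 3M PIC and LP PIC they were −0.16 to 0.44 for Cd36, 0.15 to 0.32 for Stab1 and −0.44 to −0.21 for Scarb1. Against LP 3M they were −1.45 to −1.02 for Cd36 and −0.12 to 0.59 for Olr1, and between LP 3M and LP PIC 0.57 to 0.79 for Msr1 and 0.32 to 0.48 for Scarb1. Interactions ran from −0.0094 to 0.63 for Cd36 and −4.36 to −3.24 for Olr1, with 0 to 1 of the 8 genes and 182 to 1398 of all genes called. The 182 came without mouse 1, and 291 and 242 were called without mouse 2 and mouse 4.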
